A study of Mus musculus with 2 samples.

Results

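The 42 genes described here encode proteins that carry a cell through mitosis: the kinase that starts it, the machinery that holds, checks and separates chromosomes, and the proteins that divide the cell. They were picked by name, with earlier results of these data known, and all 42 were found among 43346 mouse genes, of which 21474 are protein-coding. They fall into 9 roles: cyclin B and A with their kinase and its phosphatase, other mitotic kinases, the chromosomal passenger complex, the spindle checkpoint, the centromere and kinetochore, spindle motors, cytokinesis, anaphase, and chromosome condensation, with which the proliferation marker Mki67 is grouped.

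Total RNA was measured in liver of mouse embryos of strain B6NCrl at embryonic day 11.5. There was 1 group of 2 libraries, labelled biological replicates 1 and 2, with no treated, mutant or other-stage group beside it. Replicate 1 came from a pool of 109 embryos, and replicate 2 from a pool whose size the labels do not state. Male and female embryos were mixed in each, and each library was made from 10 ng of RNA with control RNAs spiked in. The whole organ was pooled, so the values are averages over all its cell types, and a difference in the share of dividing cells cannot be told apart from one in the amount of RNA per cell.

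Cells enter mitosis when cyclin B and CDK1 form an active kinase, which drives chromosome condensation and the building of the spindle. Kinetochores, built on centromeres that are marked by the histone variant CENP-A, attach chromosomes to spindle microtubules, and a checkpoint holds the cell back until all are attached. The anaphase-promoting complex, a ubiquitin ligase, then has securin and cyclin B destroyed, separase cuts cohesin, and the cell divides. Fetal liver at this stage is known for expanding hepatoblasts and red cell precursors. Transcripts of most of these genes are known to rise before mitosis and to be low in cells that have stopped dividing.

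The libraries held 34344230 and 31477397 estimated counts, of which 31721267 and 29750192 lay on mouse genes. Levels are given as TPM, a unit per transcript length whose total over a library, controls included, is fixed. Spike-ins took 14.6% of TPM in replicate 1 and 11.1% in replicate 2. Among protein-coding genes with a mean count of at least 100, 70.8% read higher in replicate 2 on TPM, and 59.1% did when TPM was rescaled to mouse genes alone. All 5 hepatoblast and all 5 erythroid markers reached 10 TPM in both libraries, a level that 35.1 percent of protein-coding genes reached. That level was also reached by 5 of 6 markers of mesenchyme, endothelium and macrophages and 3 of 6 heart muscle markers, so it does not set liver apart. The highest of their lists were Hbb-y (erythroid) with 12181 and 11493 TPM and Afp (hepatoblast) with 4698 and 5457 TPM. Col3a1 (mesenchyme) had 237 and 241 TPM, and Myl7 (heart muscle) 119 and 58.85 TPM. Summed TPM of 6 heart muscle markers was 265 in replicate 1 and 115 in replicate 2, and all 6 were over 25% higher in replicate 1 after scaling.

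All 42 genes were well above the detection level. All 42 reached 1 TPM in both libraries, as 56.6 percent of protein-coding genes did, and all 42 also reached 10 TPM, as 35.1 percent did. Of the 42, 19 reached 100 TPM in both, against 6.19 percent of protein-coding genes. Their median was 79.3 TPM in replicate 1 and 93.7 TPM in replicate 2 (86.5 ± 10.2, SD, n = 2), while the median of all protein-coding genes was 2.85 ± 0.0354 TPM and that of the 12165 that reached 1 TPM in both was 16.7 ± 0.742 TPM. Within protein-coding genes the members' percentiles in replicate 1 ran from 76.7 (Cenpe) upward, and over both libraries to 98.7. By mean TPM, 6 of them ranked among the 500 most abundant protein-coding genes and 13 among the first 1000. Together they held 0.574% of mouse gene TPM in replicate 1 and 0.611% in replicate 2. Estimated counts per member lay between 870 (Pttg1, replicate 2) and 20131 (Top2a, replicate 2).

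The members spanned a 16.6-fold range of mean TPM. At the top stood Ube2c, the ubiquitin-conjugating enzyme of the anaphase-promoting complex, with 399 TPM in replicate 1 and 388 in replicate 2. Cdk1, the kinase of mitotic entry, followed with 334 and 379 TPM, and Birc5, the survivin subunit of the chromosomal passenger complex, with 335 and 346 TPM. The libraries did not give Cdk1 and Birc5 the same order. Ccnb1, which encodes cyclin B1, stood at 262 and 308 TPM, below all 3 in both libraries. Cdc20, the activator of the anaphase-promoting complex that the checkpoint restrains, stood at 241 and 275 TPM. At the other end were 5 genes between 23.7 and 27.6 TPM in the mean, each low in both libraries. Cenpe, a kinetochore motor, had 22.6 and 24.7 TPM. Cdc25c, a phosphatase that activates CDK1, had 24.9 and 25.6 TPM, and Anln, the cytokinesis scaffold anillin, had 23.0 and 27.9 TPM. The range of Anln over the libraries covered that of Cdc25c and part of that of Cenpe. Espl1, the protease separase, had 25.3 and 27.8 TPM, and was followed by Ttk, the MPS1 kinase of the checkpoint, at 26.5 and 28.7 TPM. Of 41 neighbouring pairs in the order of mean TPM, 22 had the same order in both libraries, and in 11 the values of the libraries did not overlap. The order is therefore one of tiers more than of single ranks.

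**Figure D1:**
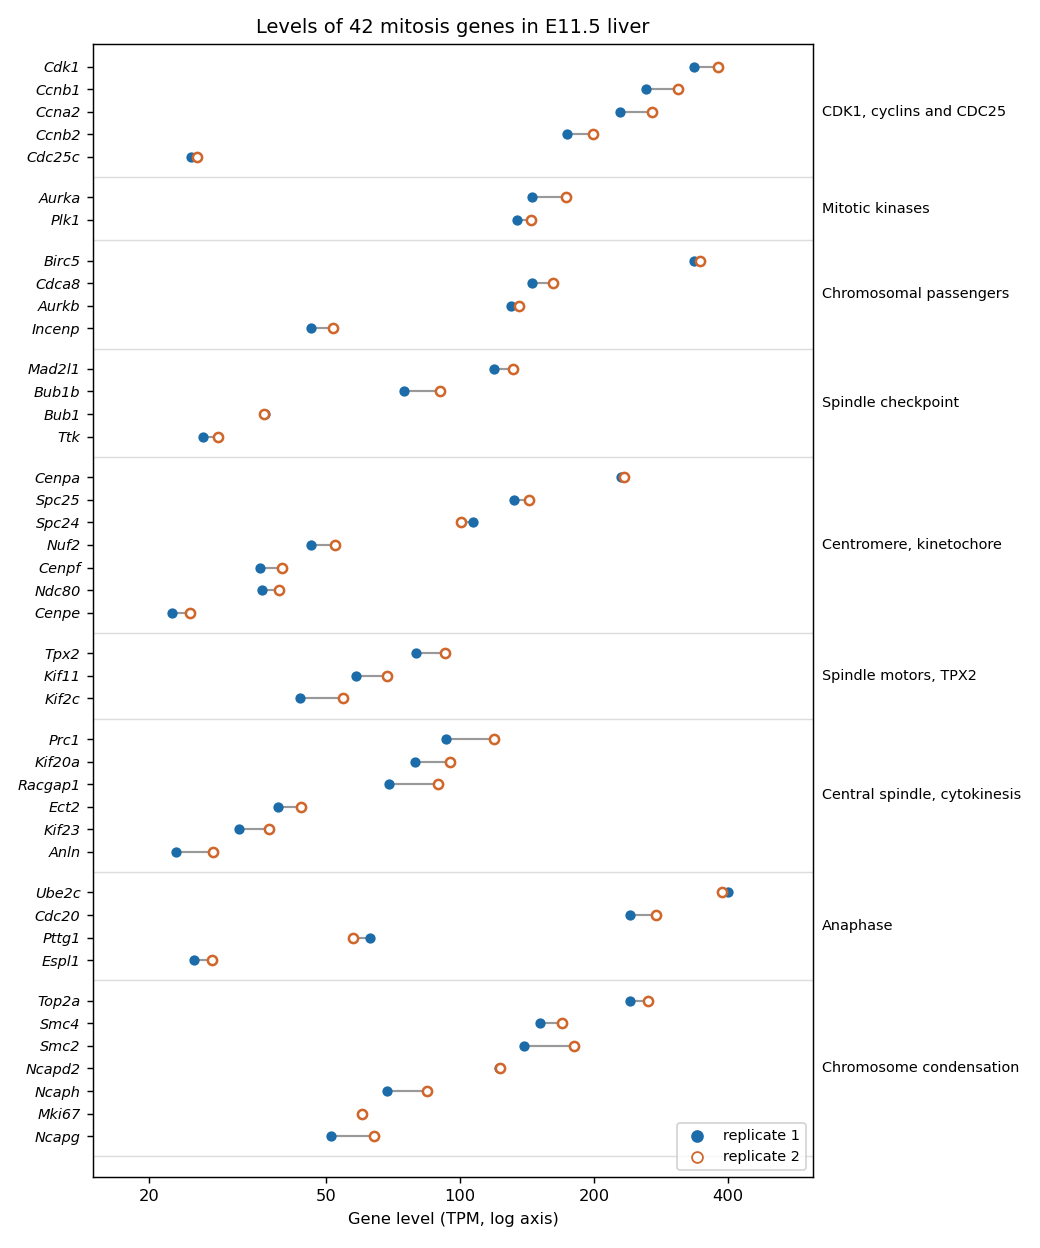
Gene level in TPM (log axis) of each of the 42 genes in replicate 1 (filled circles) and replicate 2 (open circles), joined by a line and grouped by role. The members run from Cenpe at 23.7 TPM to Ube2c at 393 TPM in the mean, and the distance between the libraries is small beside the distance between genes.

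Levels per length were lower for longer members. Across the 42 genes the Spearman correlation between the deposited effective length and mean TPM was -0.61, and across those 12165 protein-coding genes it was -0.32. Effective length is the denominator of TPM, so the 2 quantities share a term, and genes are not independent replicates. With the mean count, which is not divided by length, the correlation was -0.035 for the members and 0.075 for the larger set. The 3 highest members, Ube2c, Cdk1 and Birc5, had effective lengths of 869, 852 and 906 bases. Cenpe, Espl1 and Anln had 7714, 6531 and 5322 bases. Mki67, whose protein coats mitotic chromosomes, was the longest at 9976 bases and had 60.1 and 60.2 TPM, which ranked it 27 of the 42. Pttg1, which encodes securin, was the shortest at 658 bases and had only 62.8 and 57.3 TPM.

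**Figure D2:**
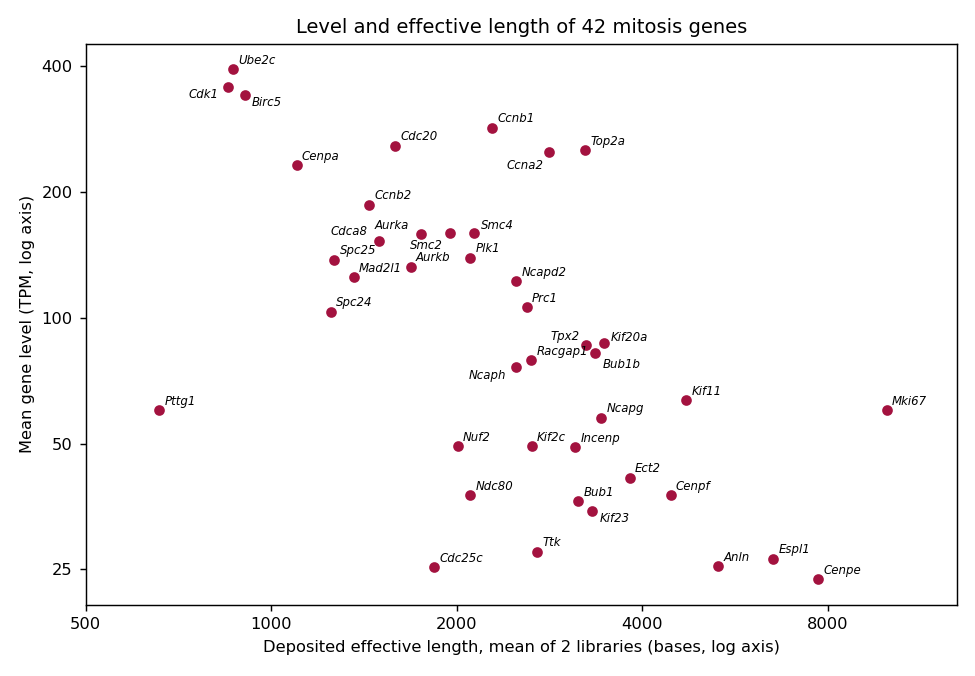
Mean gene level in TPM against the deposited effective length in bases, both on log axes, for the 42 genes. Levels fall from Ube2c, Cdk1 and Birc5 at short lengths to Anln, Espl1 and Cenpe at long ones, with Pttg1 and Mki67 away from that course.

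Start regions were compared because members that peak together in the cell cycle are known to carry shared promoter elements, among them CCAAT boxes and the cell cycle genes homology region (CHR). The regions came from RefSeq on GRCm38.p6 and ran from 250 bases before to 50 bases after the transcript start. Of the 42 members 34 had an entry; Tpx2, Smc4, Incenp, Aurkb, Kif20a, Spc24, Ccna2 and Cdc25c did not. Both strands were searched. The CHR hexamer was taken in the form TTTGAA, which reads TTCAAA on the other strand, and in the palindromic form TTTAAA. The pentamer CCAAT reads ATTGG on the other strand. Below, the 110 bases before the start are printed 5′ to 3′ on the strand of the gene, with motif matches in capitals. The first 6 are shown because both motifs lie in this stretch, Ncapg because it has a CHR hexamer alone there, and Ncaph and Nuf2 because they have neither.
Cdk1 (chr10:69352913-69353022, minus strand): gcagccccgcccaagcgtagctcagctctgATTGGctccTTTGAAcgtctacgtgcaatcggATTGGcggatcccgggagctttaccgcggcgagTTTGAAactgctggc
Plk1 (chr7:122159325-122159434, plus strand): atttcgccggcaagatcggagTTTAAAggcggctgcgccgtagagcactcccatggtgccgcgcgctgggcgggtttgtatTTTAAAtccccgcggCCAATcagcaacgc
Kif11 (chr19:37376272-37376381, plus strand): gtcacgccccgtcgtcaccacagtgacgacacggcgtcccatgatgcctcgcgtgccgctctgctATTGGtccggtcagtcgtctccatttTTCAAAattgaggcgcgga
Cdc20 (chr4:118437344-118437453, minus strand): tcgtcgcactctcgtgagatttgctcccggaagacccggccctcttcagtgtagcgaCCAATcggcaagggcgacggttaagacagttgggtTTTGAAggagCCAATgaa
Espl1 (chr15:102296183-102296292, plus strand): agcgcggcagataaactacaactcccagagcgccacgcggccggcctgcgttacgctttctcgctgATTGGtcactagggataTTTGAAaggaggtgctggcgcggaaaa
Top2a (chr11:99024190-99024299, minus strand): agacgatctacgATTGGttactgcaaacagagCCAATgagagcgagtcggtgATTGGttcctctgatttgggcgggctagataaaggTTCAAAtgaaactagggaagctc
Ncapg (chr5:45669815-45669924, plus strand): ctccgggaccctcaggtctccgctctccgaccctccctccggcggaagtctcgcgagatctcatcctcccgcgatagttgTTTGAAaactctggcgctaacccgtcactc
Ncaph (chr2:127133955-127134064, minus strand): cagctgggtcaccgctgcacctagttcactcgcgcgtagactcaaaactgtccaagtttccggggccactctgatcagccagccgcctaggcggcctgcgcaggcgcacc
Nuf2 (chr1:169531465-169531574, minus strand): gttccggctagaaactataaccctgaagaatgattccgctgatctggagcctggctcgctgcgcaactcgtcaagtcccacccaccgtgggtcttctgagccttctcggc

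A CHR hexamer was present in the start regions of 29 of the 34 members, against 28.2 percent of 17491 protein-coding genes in the same table. The form TTTGAA alone was present in 26 of 34 (18.5 percent of all), and CCAAT likewise in 26 of 34 (42.3 percent of all). At least 2 CCAAT pentamers were found in 16 of 34, against 14.6 percent. Both motifs occurred together in 25 of 34 members, against 12.7 percent, and 4 members, Mad2l1, Ncaph, Nuf2 and Pttg1, had neither, against 42.1 percent. A match is only a run of letters in this window and not a binding site, and its absence says nothing of the factors that bind there.

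In most members with TTTGAA, a match lay close to the start. Within 50 bases of it on either side, a window chosen after the positions were seen, TTTGAA was found in 23 of 34 members, against 4.59 percent of all genes. Of these, 21 also had CCAAT in the region, against 2.38 percent. Among 117 other mitosis genes with an entry, 29 had TTTGAA in that window and 21 had it together with CCAAT, 24.8 and 17.9 percent. In Cdk1 the last TTTGAA began 15 bases before the start, in Cdc20 18 bases before it, and in Espl1 27 bases before it. The separase gene Espl1, near the bottom of the order at 26.5 ± 1.77 TPM, thus carried the same pair of motifs as Cdk1 at 356 ± 31.2 TPM. The 25 members with both motifs had a median of 123 TPM and ran from 23.7 to 393 TPM, and the other 9 had a median of 49.4 TPM and ran from 25.5 to 341 TPM, so the ranges overlapped over nearly their whole length. Birc5, the highest of those 9, had its only CHR match 220 bases before the start and no CCAAT.

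**Figure D3:**
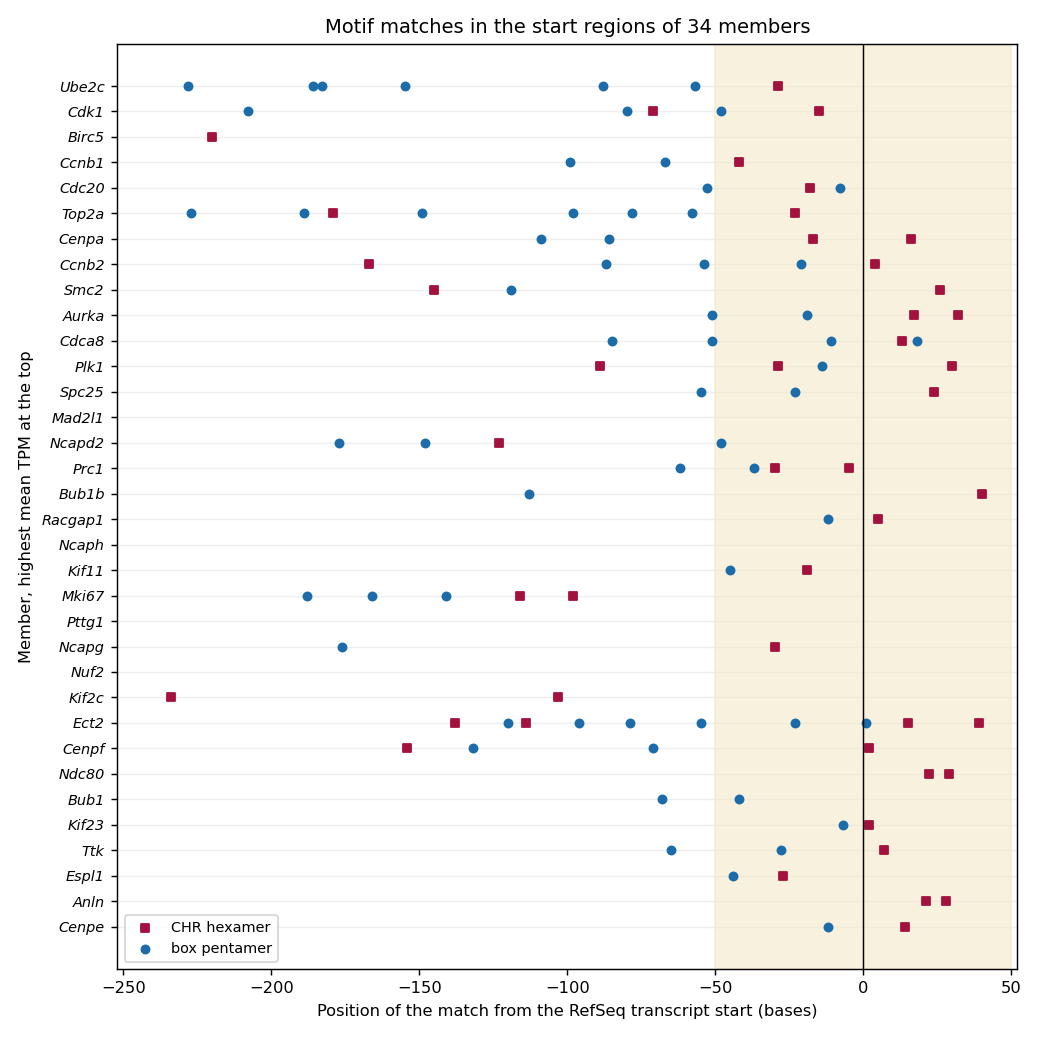
Positions of CHR hexamers (squares) and of the CCAAT pentamer (circles, labelled box pentamer) in bases from the RefSeq transcript start for the 34 members with an entry, ordered by mean TPM. The shaded band is the stretch within 50 bases of the start; it holds a TTTGAA match in 23 members, and 4 rows are empty.

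Counts of both motifs depended on where and how the search was made. In the 250 bases before the start alone, 19 of 34 members had a CHR hexamer and 26 had CCAAT, against 26.3 and 39.5 percent of all genes. On the strand of the gene alone, 25 had a CHR hexamer and 16 had CCAAT, against 21.8 and 24.5 percent. The form TTTGAA was found in 14 members before the start alone (16.9 percent of all genes) and in 20 on the strand of the gene (10.6 percent). Within 50 bases of the start it was found in 8 before the start alone (2.46 percent of all genes) and in 17 on the strand of the gene (2.54 percent). Joined with CCAAT, that count was 8 in either search (1.17 and 0.869 percent). At least 2 CCAAT pentamers remained in 10 members on the strand of the gene, against 5.48 percent of all genes. RefSeq and GENCODE starts were within 50 bases of each other for 27 of the 34 members, and for the other 7, Kif2c, Cdca8, Pttg1, Mad2l1, Ncapd2, Cenpa and Ccnb1, they were 84 to 3867 bases apart. Of 117 other mitosis genes with an entry, 48 had a CHR hexamer and 64 had CCAAT, 41.0 and 54.7 percent. Of the same 117, 41 had TTTGAA and 32 had both motifs, 35.0 and 27.4 percent. The counts of TTTGAA and of both motifs were 27 and 21 before the start alone, and 26 and 16 on the strand of the gene. Of 15 DNA replication genes, 12 had CCAAT and 3 had TTTGAA; on the strand of the gene 7 had CCAAT.

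The kinase of mitotic entry and its cyclins formed a high and even group. Cdk1 (ENSMUSG00000019942.8, chromosome 10, 69335146 to 69352938) had the highest gene level of the 4, followed in both libraries by Ccnb1 (chromosome 13, 100778650 to 100786570), by Ccna2 with 228 and 270 TPM, and by Ccnb2 with 174 and 199 TPM. Ccna2 encodes cyclin A2, which acts in S phase and early mitosis, and Ccnb2 the second B-type cyclin. The highest of the 4 exceeded the lowest 1.92-fold in replicate 1 and 1.90-fold in replicate 2. Their paralogs were lower or nearly absent. Cdk2, the kinase of S phase, had 72.6 and 88.9 TPM, 4.42-fold below Cdk1. The log2 ratio of Cdk1 over Cdk2 was 2.15 on gene TPM, 1.37 over protein-coding transcripts and 0.50 when gene counts were divided by the effective length of the longest protein-coding transcript. Ccnb1 exceeded Ccnb2 1.53-fold. Ccna1, the germ cell form of cyclin A, was at 0.58 and 0.36 TPM, and Ccnb3, another B-type cyclin, had 4 counts in replicate 1 and 1 count in replicate 2. Among the phosphatases that activate CDK1 the member Cdc25c was the lowest: Cdc25b stood at 58.9 and 68.7 TPM, 2.51-fold above it, and Cdc25a at 28.7 and 32.5 TPM, 1.21-fold above it.

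The top place of Cdk1 rested partly on short transcripts. Of its gene level, 40.2% in replicate 1 and 42.7% in replicate 2 was assigned to transcripts annotated as retained introns, of which the 2 with the largest shares are 378 and 475 bases long. Those transcripts held 15.9% and 17.3% of its counts. Summed over protein-coding transcripts alone, Cdk1 had 200 and 217 TPM, and the order in both libraries became Ccnb1, Ccna2, Cdk1, Ccnb2. On that scale the highest exceeded the lowest 1.39-fold and 1.46-fold. Over the longest protein-coding transcript Cdk1 was the lowest of the 4 in both libraries, and the spread was 2.41-fold and 2.59-fold.

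The 2 other mitotic kinases had close levels. Aurka, the centrosome and spindle pole kinase Aurora A, had 145 and 173 TPM. Plk1, the polo-like kinase that acts from mitotic entry to cytokinesis, had 134 and 144 TPM, just below the lower value of Aurka. Plk4, the polo-like kinase of centriole duplication, was 2.38-fold lower than Plk1 at 55.2 and 62.1 TPM. Aurka exceeded its paralog Aurkb 1.19-fold, with Aurkb at 130 and 135 TPM. Aurkc, the germ cell member of the family, had 0 counts in both libraries, so that Aurkb was at least 863-fold higher when 3 counts per library, the upper limit that a count of 0 allows, stand in for Aurkc.

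The chromosomal passenger complex brings Aurora B to centromeres and later to the central spindle. By gene level its subunits were the most uneven of the 6 complexes compared: the highest exceeded the lowest 7.27-fold in replicate 1 and 6.68-fold in replicate 2. The order was the same in both libraries. Birc5 was followed by Cdca8, which encodes borealin, at 145 and 161 TPM, then by the kinase Aurkb, and last by Incenp, the scaffold that activates it, at 46.2 and 51.9 TPM. Birc5 exceeded Aurkb 2.57-fold, and Cdca8 exceeded Incenp 3.12-fold. The place of Birc5 depended on length: when gene counts were divided by the effective length of the longest protein-coding transcript of each gene, the order became Cdca8, Aurkb, Birc5, Incenp, and the spread 3.13-fold and 3.01-fold, below the 3.25-fold and 3.26-fold of the NDC80 complex on that scale. That transcript of Birc5 held 9.63% and 7.71% of its counts, while the main transcript held 97.3% and 97.9% of its TPM.

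The spindle checkpoint genes spread widely. Mad2l1, the MAD2 protein that binds and holds CDC20, was the highest with 119 and 132 TPM, and its paralog Mad2l2 was 3.70-fold lower with 34.2 and 33.4 TPM. Bub1b, which encodes BUBR1, had 74.6 and 90.1 TPM and exceeded the related kinase Bub1, with 36.5 and 36.3 TPM, 2.25-fold. Ttk, which starts checkpoint signalling, was the lowest of the 4. Bub3, the partner of both BUB proteins and not a member, stood above them at 148 and 161 TPM.

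At the centromere and kinetochore, Cenpa, the histone H3 variant of centromeric chromatin, led with 230 and 233 TPM. Much of that level was assigned to transcripts that are not protein-coding in the annotation: 48.9% and 53.8% of its TPM lay on transcripts annotated for nonsense-mediated decay, and protein-coding ones had 101 and 95.8 TPM. The NDC80 complex is the main microtubule attachment of the kinetochore. Its subunits had the same order in both libraries: Spc25 with 132 and 143 TPM, Spc24 with 107 and 100 TPM, Nuf2 with 46.3 and 52.4 TPM, and Ndc80 with 36.0 and 39.2 TPM. The small subunits Spc24 and Spc25, which form the inner end of the rod, thus stood above Ndc80 and Nuf2, which bind the microtubule, by 3.68-fold from highest to lowest in replicate 1 and 3.65-fold in replicate 2. That order held on the protein-coding scale and on the longest-transcript scale. The motor Cenpe and the large coat protein Cenpf, with 35.5 and 39.7 TPM, were the other kinetochore members, and Cenpf exceeded Cenpe 1.58-fold. Their order turned without length correction: the log2 ratio of Cenpe over Cenpf was -0.66 on TPM and 0.13 on counts.

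Spindle motors stood in the middle of the range. Tpx2, a spindle assembly factor that activates Aurora A and is not itself a motor, had 79.4 and 92.5 TPM. Kif11, the motor that pushes spindle poles apart, had 58.3 and 68.6 TPM. Kif2c, which depolymerises microtubules at centromeres, had 43.7 and 54.7 TPM and exceeded its paralog Kif2a, at 16.3 and 17.6 TPM, 2.87-fold. The testis paralog Kif2b had 0 counts in both libraries, so Kif2c was at least 807-fold higher against 3 counts per library.

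The 6 genes of the central spindle and cytokinesis ran from Anln at 25.5 TPM to Prc1 at 106 TPM in the mean. Prc1, which bundles antiparallel microtubules in the midzone, had 92.9 and 119 TPM. Kif20a, a motor of the central spindle, had 79.2 and 94.9 TPM and exceeded Kif20b, with 17.6 and 20.5 TPM, 4.55-fold. In centralspindlin, the complex of a motor and a GTPase regulator, Racgap1 with 69.1 and 89.1 TPM exceeded Kif23 with 31.9 and 37.2 TPM. The gap was 2.17-fold in replicate 1 and 2.40-fold in replicate 2. Ect2, the activator of RhoA that centralspindlin recruits, had 39.0 and 43.9 TPM.

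Anaphase genes spanned most of the order, from Ube2c at rank 1 to Espl1 at rank 39 of 42. Ube2c exceeded Ube2s, the enzyme that extends the chains Ube2c starts, only 1.28-fold, with Ube2s at 313 and 303 TPM. That order depends on the transcript chosen: over the longest protein-coding transcript, which for Ube2c holds 0.162% and 0.150% of its counts, the log2 ratio was -0.91. Cdc20 exceeded Fzr1, which activates the same ligase after mitosis, 4.45-fold, with Fzr1 at 55.6 and 60.2 TPM. Securin and separase bind each other, and Pttg1 exceeded Espl1 2.48-fold in replicate 1 and 2.06-fold in replicate 2. Their counts ran the other way, 1041 and 870 for Pttg1 against 4265 and 4089 for Espl1, since separase is encoded by a transcript of far greater length. Over the longest protein-coding transcripts the pair was near equal, with a log2 ratio of -0.081, and the libraries gave it opposite orders.

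Condensation genes were led by Top2a, the topoisomerase that untangles sister chromatids, with 240 and 265 TPM, 4.73-fold above Top2b, the form that is also used outside division, with 50.2 and 56.4 TPM. The log2 ratio of Top2a over Top2b was 2.24 on gene TPM, 1.47 over protein-coding transcripts and 1.62 over the longest one. Condensin I folds mitotic chromosomes into loops. By gene level its ATPase subunits stood highest, Smc4 with 151 and 169 TPM and Smc2 with 139 and 180 TPM, followed by Ncapd2 with 122 and 123 TPM, Ncaph with 68.6 and 84.3 TPM and Ncapg with 51.3 and 64.2 TPM. Smc2 and Smc4 are shared with condensin II, and their order differed between the libraries; they were the only 1 of 28 fixed pairs that could not be ordered. Against the condensin II counterparts, Ncapd2 exceeded Ncapd3 4.54-fold and Ncapg exceeded Ncapg2 2.18-fold. The log2 ratio of Ncapd2 over Ncapd3, 2.18 on gene TPM, was 1.14 over protein-coding transcripts and 1.33 over the longest one. The kleisins went the other way: Ncaph2, at 122 and 129 TPM, exceeded Ncaph 1.64-fold.

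The subunits of condensin I were far more even when only protein-coding transcripts were summed. From highest to lowest the gene levels differed 2.94-fold in replicate 1 and 2.81-fold in replicate 2. On the protein-coding scale, an alternative added after the data were seen, the 5 subunits differed 1.54-fold and 1.53-fold. On that scale Smc4 had 69.7 and 88.5 TPM, Ncaph came next, Smc2 had 58.7 and 67.7 TPM, Ncapd2 had 55.8 and 63.5 TPM, and Ncapg had 45.2 and 58.0 TPM. The protein-coding level of Smc4 was itself carried by a short form: a 1163-base transcript had 64.7 and 81.5 TPM of it, and the 4316-base one 4.97 and 5.44 TPM. In Smc2, a 643-base transcript annotated as non-coding took 46.2% and 49.4% of the TPM of the gene but only 904 of 7352 counts in replicate 1. The 5404-base protein-coding transcript took 28.1% and 25.1% of TPM and 5364 of those counts. Short fragments weigh heavily in a unit per length. In Ncapd2, retained introns took 53.8% and 47.5% of TPM. Of the gene level of Smc4, 37.1% and 34.9% lay on a 4057-base transcript annotated for nonsense-mediated decay. That transcript held 5722 of 8349 counts in replicate 1 and 5270 of 8110 in replicate 2. The protein-coding scale thus left out 72.2% and 67.8% of the counts of Smc4, which limits the evenness seen on it. Top2a had 46.6% and 40.0% on non-coding transcripts, and its protein-coding level was 128 and 159 TPM.

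**Figure D4:**
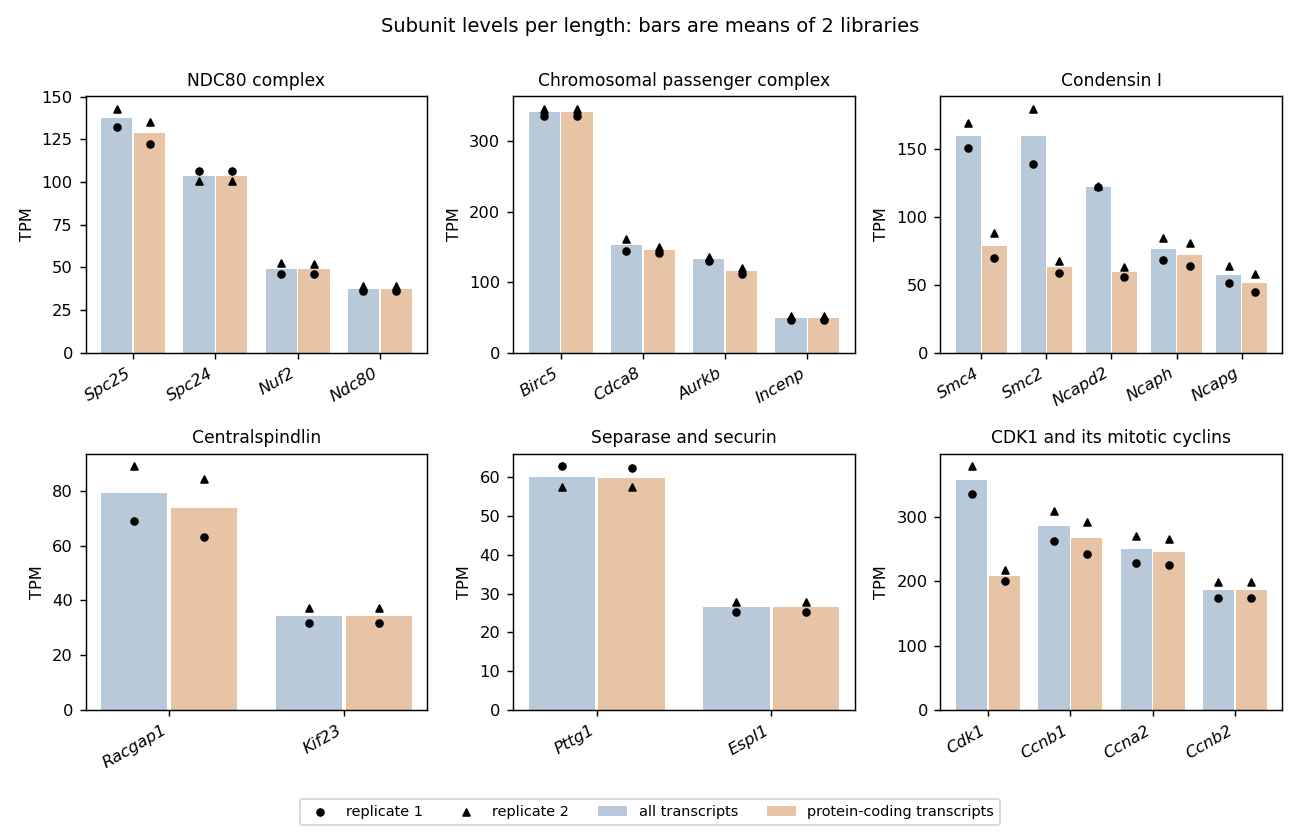
Subunit levels in TPM for 6 complexes, as means of 2 libraries (bars) with replicate 1 (circles) and replicate 2 (triangles), summed over all transcripts of a gene or over its protein-coding transcripts. The NDC80 and passenger subunits keep their order on both scales, while Smc2, Smc4, Ncapd2 and Cdk1 fall when only protein-coding transcripts are summed.

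The same transcript was the main one in both libraries for all 42 members, 12 of which have 1 annotated transcript, and for 7206 of the 7534 protein-coding genes that reached 10 TPM in both. For 36 of them, 85.7%, it also held at least 50% of the gene's TPM in both, against 80.5 percent of that larger set. The median share of the main transcript was 92.0% for members and 85.3% for the larger set. In the mean of the libraries, retained introns took over 10% of TPM in 5 members, 11.9%, against 17.5 percent of the larger set. Transcripts annotated for nonsense-mediated decay did so in 3 members, 7.14%, against 6.24 percent. Processed transcripts, a non-coding class, did so in 2, 4.76%, against 10.1 percent. Large shares on such classes were thus no more common in members than in that set, or nearly as common. The 6 members below 50% in at least 1 library were Cenpa (42.9% and 40.2%), Cenpf (46.1% and 47.7%), Prc1 (41.9% and 35.4%), Smc2, Smc4 (42.8% and 48.1%) and Ncapd2 (45.3% and 50.9%). In Prc1 protein-coding transcripts together held 94.3% of TPM in replicate 1 and 94.5% in replicate 2, so its level rested little on other classes. In Cenpf the main transcript has 3001 bases, while the longest, of 11130 bases, held 27.6% and 25.3% of TPM and 2785 of 4170 counts in replicate 1. These shares are model estimates over overlapping transcripts, and their division between short and long forms is uncertain.

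Some members share sequence with other genes. Transcripts of 11 members aligned over 300 bases or more at 90% identity or higher to another gene. The matches at 100% identity, of Ccna2, Cdc25c, Kif20a, Ncapg and Prc1, were to overlapping genes on the opposite strand that are also counted below. Ccnb1 matched the processed pseudogene Ccnb1-ps at 99.2% identity, but that copy held only 1.53 and 2.03 TPM. Ndc80 matched 2700099C18Rik at 92.7%, with 12.1 and 11.3 TPM, the largest such level among the pseudogenes. For 8 members a protein-coding gene on the opposite strand overlaps, among them Elovl1 beside Cdc20 and Cdc23 beside Kif20a. The sources used here do not say whether reads were counted by strand, so these members' levels carry that uncertainty. Similar and overlapping genes were not counted for other protein-coding genes, so neither count can be called particular to the members.

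Between the 2 pools the members differed little, most of them in the same direction. On TPM 38 of 42 read higher in replicate 2, against 70.8% of protein-coding genes with a mean count of at least 100. After scaling of estimated counts by TMM, a factor that sets the bulk of genes level, 34 of 42 were still higher in replicate 2, against 54.5 percent of protein-coding genes. The median scaled log2 ratio of replicate 1 over replicate 2 was -0.077 for the members and -0.018 for protein-coding genes. None of the 42 was 25% or more apart, while 4.75 percent of the 11522 protein-coding genes were that much higher in replicate 1 and 3.19 percent in replicate 2. That larger set starts at a mean of 100 counts and the members at 955.5 (Pttg1), so the sets were not matched on counts. On unscaled TPM 4 members, Kif2c, Racgap1, Prc1 and Smc2, were at least 25% higher in replicate 2, against 7.85 percent of protein-coding genes. The largest difference was 1.29-fold. The 2 libraries are a single pair, so these values describe the pools and test no condition.

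The member furthest apart was Racgap1, with 4713 counts in replicate 1 and 5317 in replicate 2 and a scaled log2 ratio of -0.29 (95% exact binomial interval -0.34 to -0.23, counting error only). Ncapg followed at -0.27, Kif2c at -0.26, Prc1 at -0.26 and Ncaph at -0.24. The 6 cytokinesis genes had a median of -0.18, as did the spindle group. In the other direction Spc24 stood at 0.17, Pttg1 at 0.15 and Ube2c at 0.12. Across the 42 members the Spearman correlation between effective length and the scaled log2 ratio was -0.41. Across the 12165 protein-coding genes that reached 1 TPM in both libraries it was -0.15, and the part of length was not tested. Counting intervals lay wholly below 0 for 23 members and wholly above for 6, and for 13 they included 0. The same intervals were not computed for other protein-coding genes, so these counts cannot be called particular to the members. For comparison, the median of 20 DNA replication genes was -0.16 and that of 138 other mitosis genes -0.07. The heart muscle markers stood at a median of 1.63 in the opposite direction; their part in the members' differences was not tested.

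**Figure D5:**
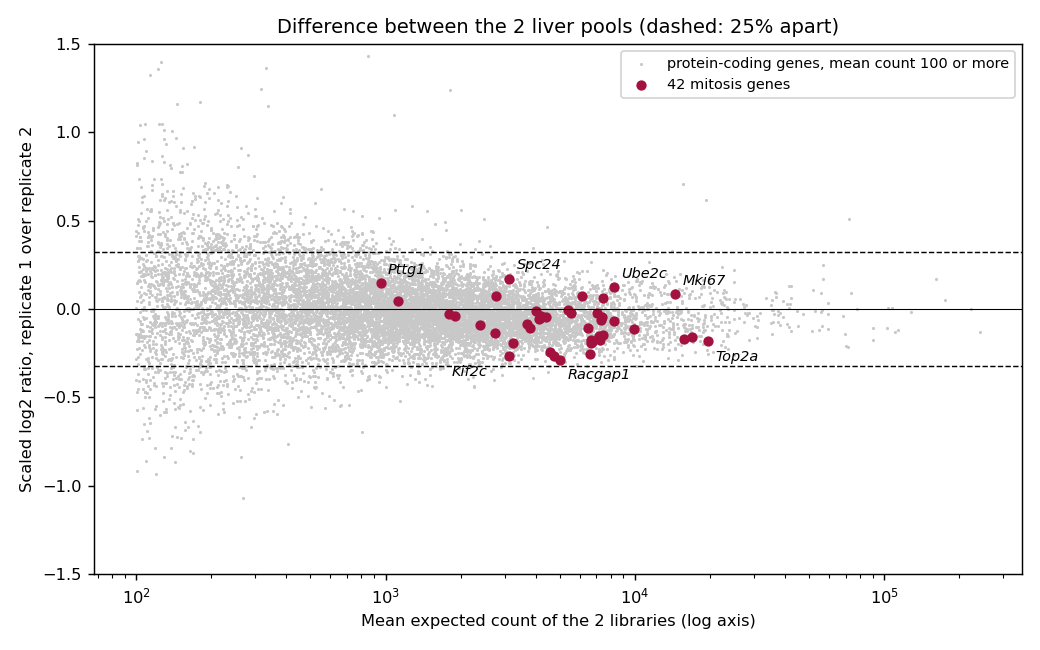
Scaled log2 ratio of replicate 1 over replicate 2 against the mean expected count (log axis) for protein-coding genes whose mean count was at least 100 (grey) and the 42 members (red); dashed lines mark a difference of 25%, and 9 grey genes lie beyond the axis. All 42 members lie between the dashed lines, 34 of them below 0.

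Other genes of the same pathway were present at lower levels. The 138 listed had a median of 37.7 ± 1.64 TPM. All of them reached 1 TPM in both libraries, 130 reached 10 TPM and 20 reached 100 TPM. At their head were Cks2 with 469 and 473 TPM and Cks1b with 380 and 404 TPM, small subunits that bind cyclin-dependent kinases, so that Cks2 stood above every member. All 17 genes of the anaphase-promoting complex and its partners were at 10 TPM or more, with a median of 76.2 ± 1.81 TPM, led by Ube2s and by Anapc5 with 242 and 277 TPM. The 15 cohesin genes, whose products hold sister chromatids together, had a median of 28.2 ± 4.37 TPM and no gene at 100 TPM, the highest being Smc1a with 74.6 and 86.3 TPM. For the 28 other centromere and kinetochore genes the median was 34.7 ± 2.46 TPM, with Zwint at 223 and 247 TPM and Cenpx at 147 and 144 TPM highest. The 8 other checkpoint genes had a median of 33.7 ± 2.19 TPM, the 30 other spindle genes 39.1 ± 2.74 TPM with Tacc3 at 177 and 204 TPM, and the 10 other cytokinesis genes 40.1 ± 2.12 TPM with Rhoa at 200 and 204 TPM. The list of 12 regulators of mitotic genes, which also held the cell division genes Cdca2 and Cdca3, had a median of 34.8 ± 1.71 TPM. Its highest were Rbbp4 with 242 and 284 TPM and Cdca3 with 170 and 180 TPM.

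Most genes listed for meiosis and germ cells were at or near 0. Of 13 listed, 11 were under a TPM of 1 in both libraries, as were 8908 of the 21474 protein-coding genes. Aurkc, Kif2b and the meiotic cohesin gene Rad21l had 0 counts in both, which allows up to 0.137, 0.0542 and 0.0747 TPM in replicate 1. The meiotic cohesin subunits Stag3, with 5.49 and 6.53 TPM, and Rec8, with 3.78 and 2.03 TPM, were the 2 above 1 TPM. The 20 DNA replication genes, by contrast, had a median of 130 ± 13.7 TPM, and 10 of them were at 100 TPM or more in both libraries.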

How the data were processed

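The deposited data were a gene table and a transcript table for each of 2 libraries of 1 group, from separate pools of embryos. Per the labels, the assembly was mm10. Aligner, quantifier, versions and strand use were not given in the sources used here. Per the file headers, the authors deposited expected counts (estimated, not always whole), TPM relative to all features, and the percent of each gene's TPM carried by each transcript. Per the file headers, effective lengths, posterior means and credibility bounds of TPM, handled as signal values, were deposited beside them; the level of those intervals is not stated, and 70 of 84 member TPM values lay inside theirs.

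Members and lists were chosen with earlier results of these data known. Symbols, classes and coordinates came from GENCODE M21 on GRCm38, which matched 42462 of 43346 genes; 884 did not match. All 42 members could be named. Full values were given for the 5 highest and 5 lowest, subunits of 6 complexes, 28 fixed pairs and members with a main transcript under 50%. Of other lists up to the 2 highest, genes under a TPM of 1 and partners in pairs were named.

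A pair was ordered when both libraries agreed, the deposited intervals did not overlap and the mean log2 ratio of TPM (pseudocount 0.1) exceeded the difference between libraries. No p-value was computed, since flipping the signs of 2 values exactly gives at best p = 0.5. Counts were rounded for edgeR 4.0.16 (TMM) and DESeq2 1.42.0 (size factors) in R 4.3.3, with a pseudocount of 0.5 and a minimum mean of 100 counts. Ratio intervals are 95% exact binomial, and floors are 3 counts; both reflect counting error alone, because PCR copies were not told apart by molecular identifiers. Similar transcripts were searched with BLAST 2.17.0. Python 3.11.15 and pandas 2.3.3 did the rest. The alternatives tried were other scalings, posterior means, pseudocounts, folds, filters, motif windows and each library alone; sums over protein-coding transcripts and counts over the longest protein-coding transcript were added after seeing the data.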

Additional observations from a re-analysis of the deposited data

How the results depend on the processing

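With 2 libraries of 1 group, the spread between pools is the only spread between replicates, and no condition was tested. No paired analysis was possible because there is only 1 group. Splits between overlapping transcripts are model estimates and limit every per-length value.

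The median member level (86.5 TPM) became 99.1 on TPM rescaled to mouse genes, 74.5 over protein-coding transcripts and 72.9 over the longest protein-coding transcript; each library alone gave 79.3 to 93.7. The median of other mitosis genes (37.7 TPM) became 43.2 when rescaled, and 36.5 to 38.8 with each library alone. The spread of the NDC80 complex (3.67-fold) was 3.70 on posterior means, 3.43 over protein-coding transcripts and 3.25 over the longest one, and 3.65 to 3.68 with each library alone. Over the longest transcript the spread became 3.07 for the passenger complex (6.97), 1.48 for condensin I (2.87), 2.05 for centralspindlin (2.28), 1.07 for separase and securin (2.27) and 2.50 for CDK1 and cyclins (1.91). Over protein-coding transcripts it became 1.53 for condensin I and 1.43 for CDK1 and cyclins. With each library alone these spreads were 6.68 to 7.27, 2.81 to 2.94, 2.17 to 2.40, 2.06 to 2.48 and 1.90 to 1.92.

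Members at 100 TPM or more numbered 19, and 14 to 20 under the alternatives. Members 25% higher in replicate 2 numbered 4 on TPM relative to all features, where 7.85 percent of protein-coding genes passed, and 0 under the other settings. Ordered pairs numbered 27 or 28 of 28. The order turned for Cenpe over Cenpf (log2 ratio 0.13 on counts, 0.64 over the longest transcript), Pttg1 over Espl1 (-2.13 on counts), Birc5 over Aurkb (-0.34 over the longest transcript) and Ube2c over Ube2s (-0.91 over the longest transcript); these settings change the length that counts are divided by. Pttg1 over Espl1 came to -0.081 over the longest transcript, where the libraries gave opposite orders. Of the 28 pair ratios, 21 moved by more than the spread between libraries on counts, 17 over the longest transcript and 15 over protein-coding ones. Members with CHR fell from 29 to 19 in bases before the start alone, those with CCAAT from 26 to 16 on the strand of the gene alone, and those with both from 25 to 12 on that strand. Over all protein-coding genes these shares fell from 28.2 to 26.3, from 42.3 to 24.5 and from 12.7 to 5.99 percent. TTTGAA fell from 26 to 14 before the start alone and 2 or more CCAAT from 16 to 10 on the strand of the gene. Over all genes these shares fell from 18.5 to 16.9 and from 14.6 to 5.48 percent. TTTGAA within 50 bases of the start fell from 23 to 8 before the start alone, and with CCAAT from 21 to 8 in either search. Over all genes the first share fell from 4.59 to 2.46 percent, and the second from 2.38 to 1.17 and 0.869 percent.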
